A study of Xenopus laevis with 39 samples.

Results

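The whole nose of the control Xenopus laevis larva was set against the whole olfactory bulb by RNA sequencing, with 3 libraries of each tissue. These 6 libraries were taken by their column names out of the 39 libraries, in 13 groups, of a study of the frog olfactory system across life stages and after injury. Per the labels, both tissues came from premetamorphic larvae, and no treatment is named for either group. Nerve-cut larvae gave further noses and bulbs, sampled 2 days, 1 week or 7 weeks after transection of the olfactory nerve with 3 libraries in each of these 6 groups, which entered the same model to estimate the spread between libraries and are set beside the controls at the end. No label names the strain, the sex, the number of animals per library or any pooling, so p-values measure only the spread between libraries. The noses held 42.8, 67.2 and 76.3 M counted reads (M, 1e6) and the bulbs 71.1, 100.002 and 67.2 M. Spearman correlations of levels across genes were 0.981 to 0.989 within noses, 0.993 to 0.997 within bulbs and 0.713 to 0.723 between tissues.

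The larval nose holds olfactory receptor neurons, which are bathed in water, renew throughout life and send their axons along the olfactory nerve to the bulb. Ciliated receptor neurons turn an odour into a current through a cyclic nucleotide cascade and a calcium-gated chloride channel, and microvillous neurons of the vomeronasal organ use another set of G proteins. Supporting, basal, secretory, multiciliated and ion-transporting cells make up the rest of the lining, which rests on connective tissue and cartilage. The bulb is part of the forebrain, where mitral and tufted cells release glutamate and most interneurons release GABA.

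Most genes differed between the tissues. Of 34508 genes tested, 39.7% were higher in noses and 35.1% in bulbs at an adjusted p under 0.05 (edgeR quasi-likelihood test with Benjamini-Hochberg adjustment), and the median log2 fold change, nose minus bulb, was 0.10. These shares are the background for each gene list below. For a difference of more than 2-fold they were 26.3% and 16.6%. Noses made up 53.1% of the called genes, but 38.0% (8762 in noses, 14267 in bulbs) when the deposited TPM values were tested instead, where the median gene stood at -0.33. Levels below are counts per megaread (CPM), given in the order of libraries 1, 2 and 3, and a value after ± is a standard error with n = 3 libraries per group. In whole tissue, fewer cells of a type and less RNA per cell cannot be told apart.

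Markers of the nose were on their own side with few exceptions, and those of forebrain and bulb were so in their majority only. All 9 receptor neuron markers (9 of 9) and 20 of 21 markers of the nasal lining were higher in noses. The 9 are copies of gng13, cnga2, stoml3, s100z and gng8, and none is of omp or gnal, which were also set as markers. E-cadherin cdh1.S, which joins epithelial cells, had a mean of 309 CPM in noses and 0.468 CPM in bulbs (log2 fold change 9.37 ± 0.66), and the basal cell factor tp63.L 69.8 and 0.101 CPM (9.41 ± 0.52). Of 20 forebrain and bulb markers 14 were higher in bulbs and 5 in noses. The T-box factors of projection neurons, eomes.L with means of 0.347 CPM in noses and 44.7 CPM in bulbs (-7.08 ± 0.52) and tbr1.S with 2.70 and 48.4 CPM (-4.16 ± 0.22), were on the bulb side. On the nose side were both copies of the zinc finger factor sp8, a marker of bulb interneurons in mammals, with sp8.L at 125 and 43.4 CPM (1.52 ± 0.19), both gad1.2 copies and tbx21.S. The mitral cell factor tbx21.L had a mean of 1.40 CPM in each tissue.

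**Figure D1:**
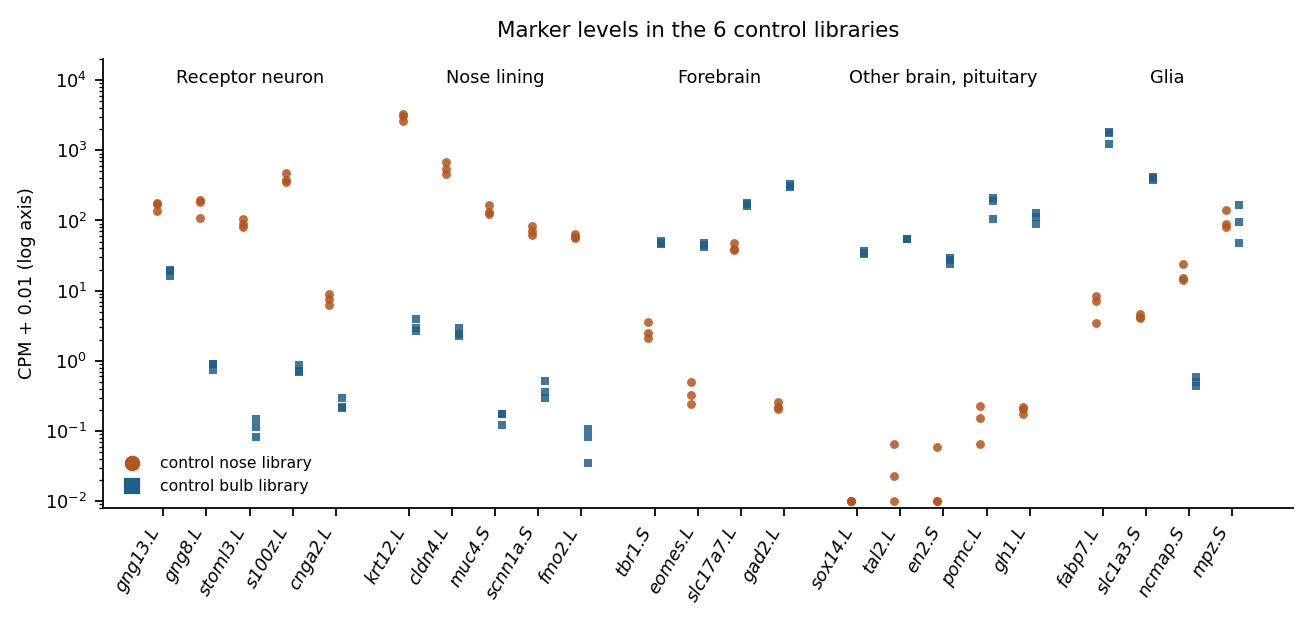
Counts per megaread plus 0.01 on a log axis for 23 genes in each of the 3 control noses (circles) and 3 control bulbs (squares). Tissues separate for 22 of the genes, and the myelin gene mpz.S overlaps.

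Bulb libraries also carried transcripts of brain regions and glands that are not olfactory bulb. Growth hormone gh1.S, made in the pituitary, stood at 0.0242, 0.0558 and 0 CPM in noses and at 119, 104 and 83.2 CPM in bulbs (-11.82 ± 0.54), and the hormone precursor pomc.L at 0.218, 0.0558 and 0.145 against 188, 209 and 105 CPM (-10.33 ± 0.53). Over the whole list of 17 tested pituitary genes 13 were higher in bulbs and 3 in noses, and their summed level was 670, 667 and 437 CPM in bulbs against 50.2, 53.0 and 44.3 CPM in noses. The 3 exceptions were gonadotropin subunits, lhb.L (2.90 ± 0.11), lhb.S (4.64 ± 0.40) and fshb.L (2.18 ± 0.59). Factors of midbrain, hindbrain and diencephalon were present as well. The midbrain factor en2.S stood at 27.6, 28.9 and 24.2 CPM in bulbs and 0.0483, 0 and 0 CPM in noses, and tal2.L, a factor of midbrain neurons, at 54.6, 54.6 and 54.3 against 0, 0.0558 and 0.0131 CPM. Of 91 tested posterior brain factors 58 were higher in bulbs and 8 in noses (median log2 fold change -2.15), with summed levels of 672 to 691 CPM against 152 to 187 CPM. Genes listed for choroid plexus and pineal were found on both sides. The choroid plexus chloride channel gene clic6.L stood at 0.363, 0.460 and 0.499 CPM in noses and 14.6, 20.4 and 30.9 CPM in bulbs (-5.60 ± 0.31), and crx.L, a factor of pineal and retinal photoreceptors, at 0, 0.0279 and 0 against 1.36, 1.15 and 1.17 CPM. The transthyretin gene ttr.S, also of that list, was on the nose side, at 3.43, 3.19 and 2.23 against 0.0837, 0.0613 and 0.0623 CPM. Whether ttr marks choroid plexus in this frog was not examined. No label says how far the dissection reached, and the part of these tissues in the bulb-side differences below was not tested.

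Nose library 1 carried more muscle RNA than the others. The summed level of the skeletal muscle list was 2992, 229 and 116 CPM in noses and 77.3 to 77.8 CPM in bulbs. The calcium pump atp2a1.L of the muscle reticulum stood at 161, 10.6 and 2.64 CPM in noses. Of 46 tested muscle genes 39 were higher in noses (median 4.98), and 19 without nose library 1.

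**Figure D2:**
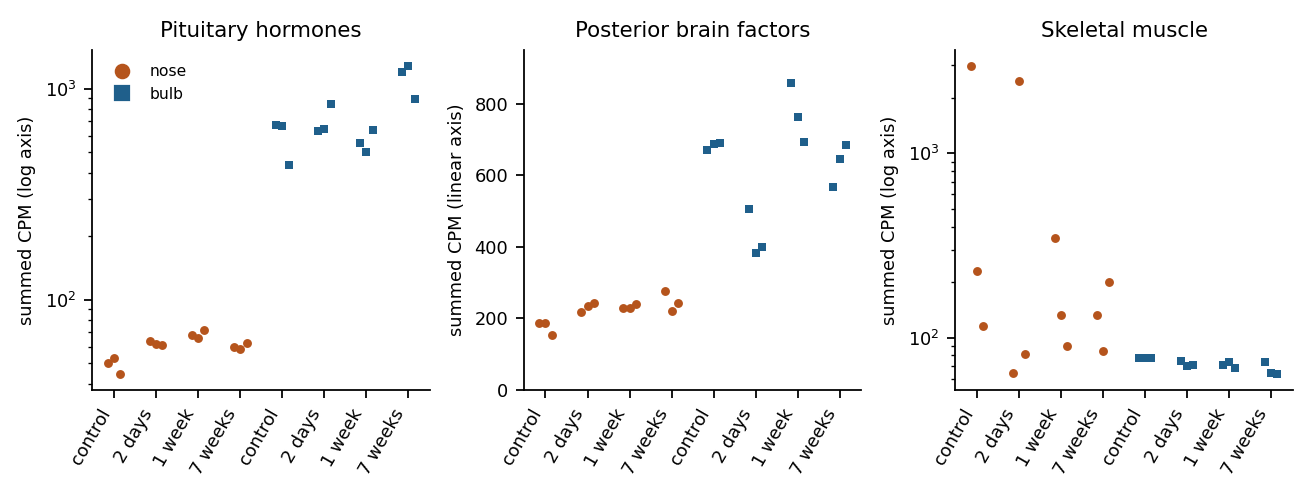
Summed CPM of the pituitary list (log axis), the posterior brain factor list (linear axis) and the skeletal muscle list (log axis) in each library of the control and nerve-cut noses (circles) and bulbs (squares). Pituitary genes reach 437 to 670 CPM in control bulbs and at most 53.0 CPM in control noses, and nose library 1 stands at 2992 CPM of muscle genes.

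Some genes had no read in any library of a tissue. There were 52 genes without a read in the 3 noses and with at least 1 CPM in bulbs, 33 of which carry a gene symbol, and 150 without a read in the bulbs, of which 7 carry one. For such genes the fold is a lower bound that takes 3 counts over the 3 libraries as the floor. The bulb-side gene sox14.L, a factor of brainstem and thalamic neurons at 34.8, 36.5 and 33.5 CPM in bulbs, was at least 2215-fold higher there, and pou4f2.S, a factor of retinal and midbrain neurons, at least 1546-fold. Arc.L, which neurons induce when active, stood at 13.3, 20.7 and 18.1 CPM in bulbs and was at least 1117-fold higher. The retinoic acid binding protein gene crabp1.S was at least 496-fold higher and the serotonin receptor gene htr1a.L at least 367-fold. In the other direction the serine protease tmprss11f.S, at 2.44, 3.67 and 8.28 CPM in noses, was at least 487-fold higher, as was the leptin gene lep.L at 2.13, 5.51 and 6.70 CPM. The posterior homeobox gene hoxc13.L, which acts in hair and nail in mammals, was at least 121-fold higher in noses, where its 3 libraries lay at 1.47, 1.55 and 0.985 CPM. Annotated odorant receptors or5i1.L (at least 401-fold), or11l1.L (at least 196-fold) and or51e1.S (at least 122-fold) complete the nose side of those named. Among the 10 largest nose-side changes with a symbol, and not of the lists below, were the immune checkpoint ligand vtcn1.L at 17.4, 22.8 and 20.4 CPM in noses, where 1 read fell to bulbs (ratio 5741, 95% counting interval 1030 to 226834), the uromodulin copy umod.3.L at 924, 1176 and 1250 against 0.371, 1.45 and 0.249 CPM (10.59 ± 0.56), and lypd2.L at 762, 587 and 548 against 0.227, 0.657 and 0.324 CPM (10.56 ± 0.62).

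**Figure D3:**
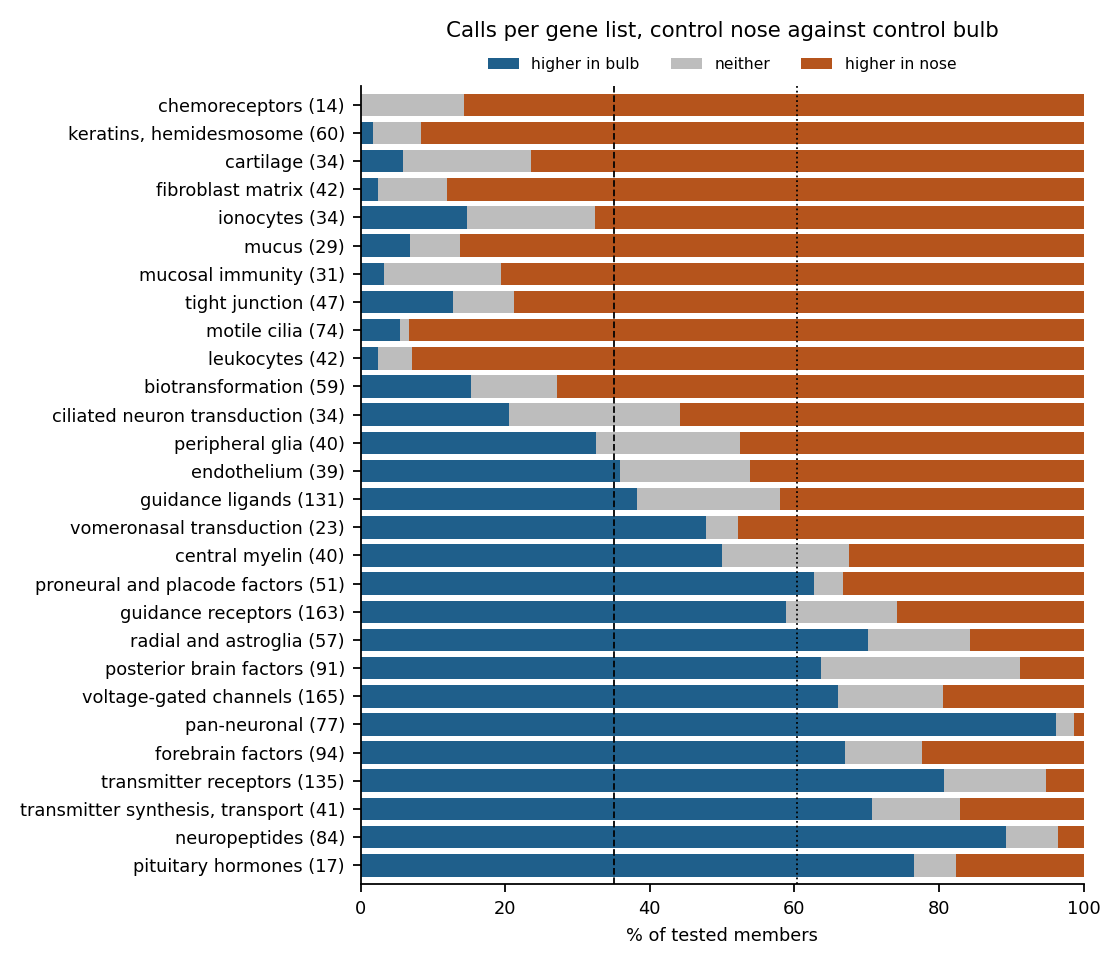
Percent of the tested members of 28 gene lists (number in parentheses) that were higher in bulbs, in neither tissue or higher in noses. The dashed line at 35.1% is the share of all tested genes higher in bulbs, and the dotted line leaves 39.7%, the share higher in noses, on its right.

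Genes of ciliated receptor neurons were split between the tissues. Of 34 tested 19 were higher in noses, against 7 in bulbs, with a median log2 fold change of 0.51. Beside genes of odour transduction the list holds the transcription factors ebf2, ebf3, emx2, fezf1 and lhx2. The adhesion genes kirrel2 and kirrel3 are in it as well, so the counts are not of the transduction cascade alone. The stomatin-like protein gene stoml3.L, which in mice sits in the sensory cilia, stood at 87.9, 81.7 and 106 CPM in noses and at 0.0717, 0.105 and 0.137 CPM in bulbs (9.76 ± 0.59, edgeR adjusted p = 1.2e-11). Both copies of the chloride channel ano2 followed, with ano2.S at 56.2, 84.8 and 64.4 against 0.885, 0.832 and 0.835 CPM (6.33 ± 0.26). The libraries of the tissues did not overlap for either gene. The channel subunit cnga2.L was higher in noses by 5.03 ± 0.41 and the G gamma subunit gng13.L by 3.14 ± 0.25. Parts of the same cascade were higher in bulbs. The sodium, calcium and potassium exchanger slc24a4.L, which ends the odour response in mouse neurons, stood at 1.26, 1.56 and 1.50 CPM in noses and 28.2, 28.3 and 29.8 CPM in bulbs (-4.31 ± 0.20). The channel subunit cngb1.S (-2.25 ± 0.35) and the adenylyl cyclase adcy3.S (-1.04 ± 0.12), with 20.1, 25.1 and 21.0 against 42.9, 46.0 and 47.1 CPM, lay on that side too. Their .L copies were not called. The copy cngb1.L, with more reads than cngb1.S, stood at 26.4, 37.6 and 29.0 against 23.0, 24.8 and 25.5 CPM (0.34 ± 0.18), and adcy3.L differed by -0.26 ± 0.14. The cyclase adcy3 also serves primary cilia of brain neurons in mammals.

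Vomeronasal genes divided evenly, and 11 of 23 tested were higher in noses and 11 in bulbs (median -0.26). The list also holds the transcription factors bcl11b, meis2 and tfap2e and the guidance receptor nrp2, so the counts are not of transduction alone. Their called copies were all higher in bulbs, as were both copies of gnao1 and gnai2. The other called members were higher in noses. The calcium-binding protein gene s100z.L stood at 482, 356 and 376 CPM in noses and at 0.717, 0.876 and 0.685 CPM in bulbs (9.04 ± 0.48). Next to it umodl1.L, at 269, 415 and 351 against 0.861, 1.14 and 1.07 CPM (8.39 ± 0.34), and the calretinin gene calb2.S, at 609, 723 and 759 against 19.7, 18.4 and 16.8 CPM (5.25 ± 0.27), belong to the nose side. Among those higher in bulbs, the G alpha o gene gnao1.L stood at 51.2, 58.4 and 52.9 CPM in noses and 203, 238 and 187 CPM in bulbs (-1.95 ± 0.30), and the homeobox gene meis2.L at 7.61, 11.0 and 8.46 against 119, 122 and 125 CPM (-3.75 ± 0.19). Of 20 annotated chemoreceptor genes, 14 passed the filter on low counts, through the tissue where they were detected, so the 12 that were higher in noses, and 0 in bulbs, describe those that passed. Both copies of a vomeronasal receptor were among them, with vn2r1p.S at 21.1, 31.8 and 26.5 CPM in noses and 0, 0.035 and 0.0249 CPM in bulbs (10.16 ± 0.47).

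Different members of the heterotrimeric G protein families were higher in each tissue. In the G gamma family 10 of 21 tested genes were higher in noses, against 7 in bulbs. These counts lay near the shares of all tested genes (39.7% and 35.1%). The nose side held gng8.L, the vomeronasal subunit, at 195, 107 and 184 CPM against 0.741, 0.902 and 0.885 CPM (7.58 ± 0.30). The bulb side held gng3.L, a subunit of brain neurons, at 6.40, 5.51 and 5.11 against 159, 164 and 146 CPM (-4.79 ± 0.22), and gng7.L (-1.99 ± 0.11). In the G alpha family 3 of 20 were higher in noses, against 15 in bulbs. Both gna14 copies, which signal to phospholipase C, were higher in noses, gna14.L at 32.9, 42.1 and 40.8 against 3.47, 3.77 and 3.48 CPM (3.43 ± 0.13). Their relatives of the same class, gnaq.L at 8.60, 10.2 and 10.9 against 52.3, 54.2 and 54.3 CPM (-2.44 ± 0.11) and gnaq.S (-2.34 ± 0.10), were higher in bulbs.

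**Figure D4:**
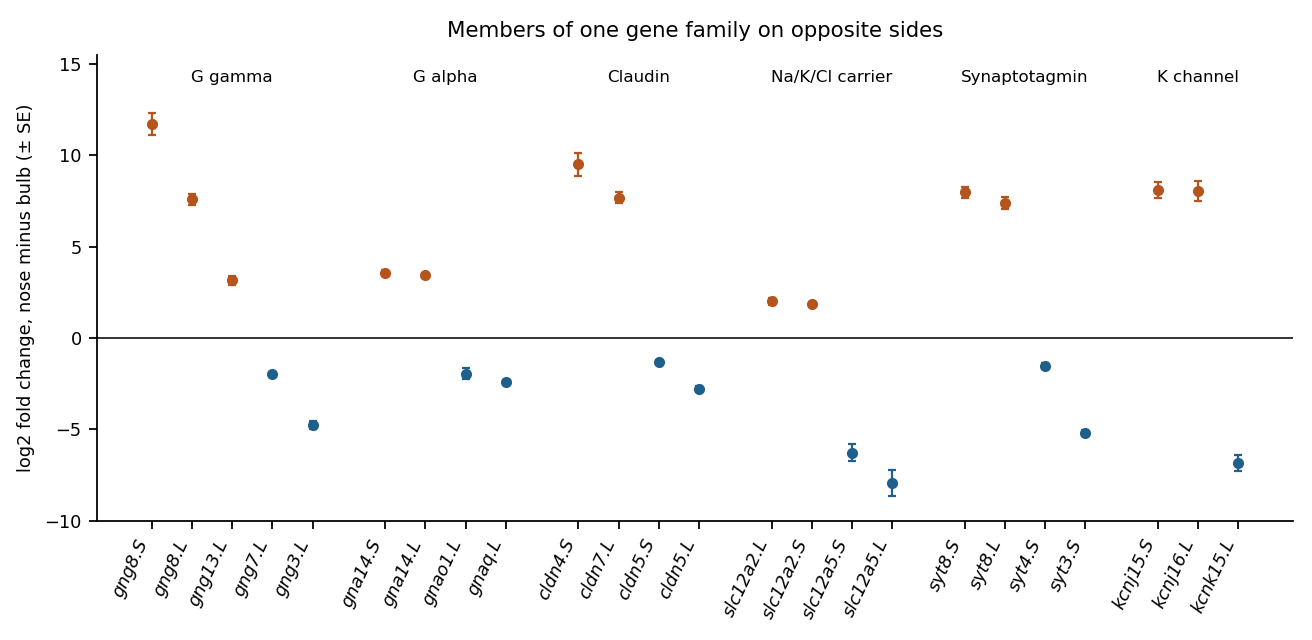
Log2 fold change, nose minus bulb, with its standard error for members of 6 gene families, above 0 where higher in noses and below 0 where higher in bulbs. Among G gamma subunits gng8.S lies at 11.71 and gng3.L at -4.79, and among chloride carriers slc12a2.L lies at 2.00 and slc12a5.L at -7.96.

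Factors of neurogenesis were found on both sides. Of 51 tested genes 17 were higher in noses, against 32 in bulbs (median -0.79). On the nose side stood the homeobox gene dlx3.S at 29.4, 34.0 and 31.3 against 0.323, 0.114 and 0.249 CPM (7.15 ± 0.33). The placodal coactivator eya2.L (4.64 ± 0.19) and the receptor neuron factor ebf2.S (2.91 ± 0.16), at 269, 310 and 270 against 36.2, 39.7 and 37.1 CPM, were also higher in noses. The related ebf3, of the ciliated neuron list, was not called, with 0.20 ± 0.14 for ebf3.S and -0.09 ± 0.21 for ebf3.L. The copies of lhx2, a factor of receptor neurons and forebrain, went opposite ways by small amounts, with 0.37 ± 0.12 for lhx2.L and -0.50 ± 0.11 for lhx2.S. The call of lhx2.L was lost without nose library 2 (0.29, edgeR adjusted p = 0.073), without bulb library 3 (0.32, edgeR adjusted p = 0.053) and with all 39 libraries in the model (0.29, edgeR adjusted p = 0.074). The bulb side held the Hes family gene hes6.2.S at 0.363, 0.181 and 0.171 against 21.3, 22.4 and 15.8 CPM (-6.46 ± 0.41). The homeobox gene otx2.L, of placodes and brain alike, was higher in bulbs, at 23.6, 25.2 and 21.8 against 77.7, 77.7 and 72.3 CPM (-1.69 ± 0.12). Also there were the zinc finger gene sall3.L (-5.39 ± 0.28), the proneural gene neurog2.L, at 0.387, 0.195 and 0.263 against 8.98, 9.31 and 8.04 CPM, and sox11.L, a gene of young neurons (-1.81 ± 0.16).

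Lists of the nasal lining fell to the nose side almost throughout. Of 60 tested keratin, desmosome and hemidesmosome genes 55 were higher in noses, against 1 in bulbs, with a median of 5.48. Keratin krt12.L stood at 3246, 3077 and 2656 CPM in noses and at 2.95, 3.96 and 2.68 CPM in bulbs (9.87 ± 0.64), and krt5.6.S, a keratin of basal cells, at 254, 203 and 151 against 0.251, 0.140 and 0.0374 CPM (10.44 ± 0.84). The exception was the laminin chain lamb3.L (-0.99 ± 0.32), a low gene at 0.483, 0.628 and 0.617 against 1.16, 0.928 and 1.40 CPM. For tight junctions, which seal epithelia, 37 of 47 tested genes were higher in noses, against 6 in bulbs (median 3.18). Claudins of epithelia, cldn4.S at 252, 433 and 456 against 0.478, 0.403 and 0.723 CPM (9.49 ± 0.61) and cldn7.L at 422, 484 and 458 against 1.95, 2.48 and 2.27 CPM (7.67 ± 0.31), were on the nose side. The claudin of endothelia, cldn5.L, went the other way, at 6.69, 7.07 and 6.83 against 44.9, 48.8 and 49.7 CPM (-2.80 ± 0.14).

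Secretory, ion-transporting and detoxifying genes were on the nose side with defined exceptions. Of 29 tested mucus genes 25 were higher in noses, against 2 in bulbs (median 3.35). The membrane mucin muc4.S stood at 133, 125 and 167 CPM against 0.167, 0.166 and 0.112 CPM (9.86 ± 0.52), and the gel-forming mucin muc5ac.L at 45.7, 55.1 and 51.1 against 0.131, 0.131 and 0.0374 CPM (8.91 ± 0.66). The factor foxa2.S, which also acts in the midline of the brain, was higher in bulbs (-1.47 ± 0.31), and its copy foxa2.L in noses (0.65 ± 0.29, edgeR adjusted p = 0.049). Of 34 ionocyte genes 23 were higher in noses, against 5 in bulbs (median 3.58). The sodium channel subunit scnn1a.S, at 62.4, 71.4 and 84.6 against 0.287, 0.350 and 0.498 CPM (7.59 ± 0.31), the ammonia transporter rhbg.L (7.03 ± 0.52) and the ionocyte factor foxi1.L (6.59 ± 0.68), at 7.93, 4.70 and 5.10 against 0.0598, 0.00876 and 0.125 CPM, were higher in noses. The chloride channel cftr.S was not, and stood at 0.411, 0.446 and 0.342 CPM in noses and 8.02, 8.21 and 9.23 CPM in bulbs (-4.41 ± 0.34). Its copy cftr.L was not called (-0.48 ± 0.77). The bicarbonate carrier slc4a4.L (-2.75 ± 0.23), used by astrocytes as well as epithelia, was also higher in bulbs. Its copy slc4a4.S was higher in noses, at 14.3, 11.6 and 12.9 against 4.22, 3.70 and 11.1 CPM (1.03 ± 0.30).

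Enzymes that clear odorants and foreign compounds followed, and 43 of 59 tested were higher in noses and 9 in bulbs (median 2.06). The flavin monooxygenase fmo2.L stood at 56.5, 58.9 and 63.3 CPM against 0.0717, 0.0963 and 0.0249 CPM (9.74 ± 0.42), the cytochrome P450 cyp2a6.L at 63.8, 79.2 and 67.8 against 0.143, 0.123 and 0.0872 CPM (9.19 ± 0.48), and the retinal dehydrogenase aldh1a1.S at 140, 155 and 152 against 0.562, 0.569 and 0.523 CPM (8.07 ± 0.62). Noses and bulbs were far apart in each library for these 3. The sulfotransferase sult4a1.S, a brain member of its family, was higher in bulbs (-1.39 ± 0.16).

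Genes of motile cilia were higher in noses in 69 of 74 tested and in bulbs in 4 (median 2.71). The ciliary factor rfx3.L stood at 30.4, 43.5 and 37.2 CPM against 1.36, 1.66 and 1.72 CPM (4.55 ± 0.26), and the axonemal dynein dnah9.S at 184, 188 and 158 against 13.7, 15.9 and 15.8 CPM (3.54 ± 0.17). Levels in bulbs were therefore not at 0, and dnah5.L, at 91.5, 120 and 103 against 35.1, 32.1 and 47.9 CPM, differed by only 1.45 ± 0.17. The dynein dnah3.L (-0.57 ± 0.12) and spag16.S (-1.81 ± 0.40), a protein of the central axoneme, were higher in bulbs.

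Supporting tissues of the nose came with cartilage and connective tissue. Of 34 tested cartilage genes 26 were higher in noses, against 2 in bulbs (median 5.26). The collagen col9a1.L stood at 1356, 1115 and 1430 CPM against 4.35, 3.81 and 3.61 CPM (8.37 ± 0.32) and the proteoglycan epyc.S at 190, 128 and 189 against 0.108, 0.298 and 0.249 CPM (9.55 ± 0.31). The cartilage factor sox9.L, also a factor of brain glia, had 44.5, 50.8 and 56.3 CPM in noses and 45.1, 48.9 and 46.9 CPM in bulbs (0.11 ± 0.13, edgeR adjusted p = 0.47), so that the libraries overlapped. Its copy sox9.S was higher in noses, at 55.9, 69.5 and 73.2 against 41.4, 49.4 and 48.4 CPM (0.51 ± 0.15), without overlap. The chondroitin sulfotransferase chst11.S was higher in bulbs (-1.59 ± 0.17). Of 42 genes of fibroblasts 37 were higher in noses, against 1 in bulbs (median 3.74), with lumican lum.L at 278, 252 and 326 against 1.86, 1.83 and 2.53 CPM (7.11 ± 0.56) and the mesenchymal factor prrx1.L at 55.8, 48.4 and 48.5 against 0.646, 0.552 and 0.548 CPM (6.45 ± 0.22). The exception thy1.L, a surface protein of fibroblasts and of neurons, stood at 0.822, 0.572 and 0.670 against 93.5, 91.4 and 106 CPM (-7.16 ± 0.27).

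Leukocyte genes were higher in noses in 39 of 42 tested and in bulbs in 1 (median 2.67). The invariant chain cd74.L of antigen presentation stood at 338, 434 and 644 CPM against 3.80, 4.36 and 3.78 CPM (6.89 ± 0.27), and the T cell coreceptor cd8a.S at 5.05, 5.89 and 8.58 against 0.203, 0.254 and 0.237 CPM (4.80 ± 0.31). Of 31 genes of mucosal defence 25 were higher in noses, against 1 in bulbs (median 3.26). Nitric oxide synthase nos2.L, at 61.6, 111 and 198 against 0.0359, 0.149 and 0.137 CPM (10.10 ± 1.08), spread widely among noses but did not overlap with bulbs. The cytokine receptor il22ra1.S (8.60 ± 0.50) and the immunoglobulin carrier pigr.L (5.70 ± 0.33), which moves antibodies across epithelia, were higher as well. Endothelial genes were mixed. Of 39 tested 18 were higher in noses, against 14 in bulbs (median 0.31), and 9 were higher in bulbs without nose library 1. The adhesion molecule pecam1.L (2.78 ± 0.22), at 26.0, 25.5 and 27.4 against 3.61, 3.21 and 4.65 CPM, was on the nose side, and the thyroid hormone carrier slco1c1.L (-1.87 ± 0.22), found at the blood-brain barrier of mammals, on the bulb side. Of 17 tested red cell genes 7 were higher in noses, against 2 in bulbs (median 0.88). The count in noses was near the share of all tested genes (39.7%), and was 4 without bulb library 2.

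Brain transcription factors were on the bulb side in their majority, and 63 of 94 tested forebrain factors were higher there and 21 in noses (median -3.01). Beyond the genes without nose reads, the nuclear receptor nr2f1.L stood at 4.33, 2.82 and 2.65 CPM in noses and at 138, 152 and 137 CPM in bulbs (-5.47 ± 0.35). Genes that went against the list were otx1.S at 29.7, 32.0 and 24.5 against 4.18, 3.82 and 3.99 CPM (2.85 ± 0.15) and fezf2.S (1.82 ± 0.15). Otx1 and fezf2 are homeobox and zinc finger factors of the anterior head and forebrain.

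Most transmitter genes were higher in bulbs. For synthesis and transport of transmitters 29 of 41 tested genes were higher in bulbs and 7 in noses (median -3.41). The vesicular GABA transporter slc32a1.S stood at 0.0725, 0.0698 and 0.0920 CPM in noses and at 174, 188 and 167 CPM in bulbs (-11.09 ± 0.77). Tyrosine hydroxylase th.S, the enzyme of dopamine neurons, had means of 0.226 and 12.3 CPM (-5.73 ± 0.32). The vesicular glutamate transporter slc17a7.L differed by less, at 39.3, 47.5 and 38.6 against 161, 177 and 171 CPM (-2.02 ± 0.16). A second GABA synthesis locus went the other way, and gad1.2.S stood at 2.37, 2.93 and 2.72 CPM in noses and 0.108, 0.0438 and 0.0748 CPM in bulbs (5.16 ± 0.39).

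Transmitter receptor genes were higher in bulbs in 109 of 135 tested and in noses in 7 (median -3.39). The glutamate receptor subunit grin1.S stood at 0.725, 0.698 and 0.631 CPM in noses and 214, 223 and 236 CPM in bulbs (-8.36 ± 0.70), and the metabotropic receptor grm3.L at 0, 0.0837 and 0.145 against 28.1, 29.5 and 27.8 CPM (-8.30 ± 0.42). The GABA B receptor subunit gabbr1.L was present in both, at 38.4, 42.8 and 37.9 against 388, 394 and 380 CPM (-3.29 ± 0.16). Among the nose-side exceptions, the serotonin-gated channel gene htr3c.L stood at 9.62, 16.4 and 13.0 CPM in noses, against 3 reads in bulbs (ratio 1257, 95% counting interval 430 to 6098).

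Neuropeptide and processing genes were higher in bulbs in 75 of 84 tested and in noses in 3 (median -4.80). Thyrotropin-releasing hormone trh.L stood at 32.3, 32.7 and 35.0 CPM in bulbs, with 2 reads in noses (ratio 3145, 95% counting interval 870 to 25977), and melanin-concentrating hormone pmch.S, a hypothalamic peptide, at 23.2, 24.0 and 19.0 CPM in bulbs, with 2 reads in noses (ratio 2110, interval 584 to 17430). The growth factor igf2.L was higher in noses (1.27 ± 0.19), and the granin scg2.S overlapped between tissues at 101, 156 and 130 against 156, 145 and 180 CPM (-0.31 ± 0.23, edgeR adjusted p = 0.22).

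Although noses hold receptor neurons, general neuronal genes were higher in bulbs in 74 of 77 tested and in noses in 1 (median -2.55). The neurofilament genes nefm.S, at 0.169, 0.153 and 0.118 against 143, 120 and 210 CPM (-10.09 ± 0.42), and nefh.S (-10.36 ± 0.62) were near 0 in noses. Neuronal tubulin tubb3.L differed by less, at 310, 231 and 251 against 1068, 1107 and 925 CPM (-1.97 ± 0.20). The single gene on the nose side was the intermediate filament ina.S, at 734, 757 and 673 against 159, 147 and 175 CPM (2.17 ± 0.17). Internexin, its product, is an early filament of growing axons.

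Ion channels and carriers came from different family members in each tissue. Of 165 tested voltage-gated and potassium channel genes 109 were higher in bulbs and 32 in noses (median -2.17). The inward rectifiers of transporting epithelia, kcnj15.S at 20.0, 39.8 and 34.0 against 0.143, 0.114 and 0.0748 CPM (8.11 ± 0.44) and kcnj16.L at 15.9, 18.0 and 15.2 against 0.0598, 0.0701 and 0.0498 CPM (8.03 ± 0.54), were on the nose side. On the bulb side stood the channel regulator cacng7.S at 0.193, 0.0837 and 0.171 against 56.2, 58.0 and 47.1 CPM (-8.53 ± 0.46) and the sodium channel subunit scn2b.L at 2.32, 2.13 and 1.66 against 121, 118 and 136 CPM (-5.95 ± 0.20). Carriers that set cell chloride lay apart. The chloride importer slc12a2.L stood at 50.3, 62.7 and 56.1 CPM in noses and 13.9, 14.7 and 13.8 CPM in bulbs (2.00 ± 0.18), and the exporter slc12a5.L, which gives mature brain neurons their low chloride, at 0.242, 0.432 and 0.302 against 78.1, 84.4 and 88.7 CPM (-7.96 ± 0.72). Among synaptotagmins, calcium sensors of membrane fusion, syt8.S was higher in noses at 38.5, 30.6 and 44.3 against 0.215, 0.123 and 0.112 CPM (7.98 ± 0.30), and syt3.S in bulbs (-5.21 ± 0.17).

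Glial genes differed by kind. Of 57 tested genes of radial glia and astroglia 40 were higher in bulbs and 9 in noses (median -1.72). The fatty acid binding protein fabp7.L, a marker of radial glia and olfactory ensheathing cells in mammals, stood at 8.41, 3.42 and 7.06 CPM in noses and at 1747, 1812 and 1226 CPM in bulbs (-7.99 ± 0.54). The matrix protein bcan.L, at 0.798, 0.488 and 0.486 against 126, 142 and 104 CPM (-7.77 ± 0.22), and the glutamate transporter slc1a3.S, at 4.59, 4.06 and 4.15 against 381, 421 and 400 CPM (-6.56 ± 0.39), lay alongside. The folate enzyme aldh1l1.L, an astrocyte marker in mammals, went against them at 43.7, 96.8 and 40.9 against 8.32, 9.94 and 20.6 CPM (2.22 ± 0.29), as did the Notch target hes1.L (1.59 ± 0.16). Vimentin vim.L overlapped, at 405, 323 and 294 against 403, 445 and 325 CPM.

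Myelin and glial genes were present in both tissues. Of 40 tested central myelin and oligodendrocyte genes 20 were higher in bulbs and 13 in noses (median -0.47). Of 40 peripheral glia genes 19 were higher in noses, against 13 in bulbs (median 0.36). The oligodendrocyte factors nkx2-2.L (-9.12 ± 0.44) and olig1.L (-7.06 ± 0.51) were near 0 in noses. Other factors of that lineage were higher in noses, with olig2.S at 43.4, 43.8 and 43.1 against 21.0, 21.5 and 21.8 CPM (1.02 ± 0.18), sox8.L (1.00 ± 0.09), the myelin regulator myrf.S (1.17 ± 0.18) and the precursor cell receptor pdgfra.S (1.53 ± 0.13), while olig2.L and sox10.L were not called. The shared myelin gene mbp.S differed by -1.72 ± 0.21, at 95.1, 69.7 and 70.0 against 237, 189 and 346 CPM. The peripheral myelin gene ncmap.S, at 15.3, 14.1 and 23.9 against 0.586, 0.429 and 0.486 CPM (5.15 ± 0.25), the neuregulin receptor erbb3.L (2.47 ± 0.16) and mal.L, a myelin and epithelial membrane protein (8.98 ± 0.45), were higher in noses. Members of the same list higher in bulbs included the dystrophin-related gene drp2.L (-3.72 ± 0.15) and the POU factor pou3f1.S (-4.64 ± 0.34). The myelin lipid-binding protein gene pmp2.S was too, at 6.67, 6.32 and 5.03 against 87.0, 129 and 150.3 CPM (-4.35 ± 0.28). Its copy pmp2.L was not called, at 35.7, 30.6 and 28.7 against 29.7, 45.0 and 20.4 CPM (-0.004 ± 0.25). The main protein of peripheral myelin, mpz.S, overlapped, at 141, 89.1 and 81.6 CPM in noses and 93.7, 47.3 and 167 CPM in bulbs (0.02 ± 0.47, edgeR adjusted p = 0.98).

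Genes of axon guidance and growth were found on both sides. Of 131 tested guidance and growth ligands 55 were higher in noses, against 50 in bulbs (median 0.15), near the shares of all tested genes (39.7% and 35.1%). Of 163 receptors and adhesion molecules 42 were higher in noses, against 96 in bulbs (median -0.80). Ligands on the nose side were wnt10a.L (5.37 ± 0.41), at 3.02, 5.02 and 4.57 against 0.0598, 0.114 and 0.125 CPM, and the stem cell factor kitlg.S (4.08 ± 0.27), at 25.6, 24.3 and 31.3 against 1.40, 1.55 and 1.86 CPM. Those on the bulb side included the repulsive guidance protein draxin.L at 0.0242, 0.112 and 0.0263 against 14.0, 14.5 and 15.3 CPM (-7.94 ± 0.55) and the semaphorin sema6b.S at 0.943, 1.06 and 0.631 against 56.5, 58.2 and 60.9 CPM (-6.07 ± 0.38). Receptors in noses were led by the insulin-like growth factor receptor igf1r.L at 15.7, 19.7 and 17.5 against 1.22, 1.45 and 1.71 CPM (3.60 ± 0.28) and the adhesion protein flrt1.S (2.85 ± 0.13). The protocadherin pcdh8.L, at 0.435, 0.377 and 0.473 against 90.4, 99.8 and 88.9 CPM (-7.76 ± 0.50), the netrin receptor unc5a.S (-5.49 ± 0.26) and the BDNF receptor ntrk2.L, at 1.43, 1.73 and 1.66 against 81.9, 87.3 and 80.1 CPM (-5.68 ± 0.21), were higher in bulbs. In a ligand and receptor pair chosen after their values were seen, the chemokine cxcl12.L was higher in noses (1.07 ± 0.13) and its receptor cxcr4.L in bulbs (-1.71 ± 0.16).

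Xenopus laevis is allotetraploid, and many genes have an .L and an .S copy (homeologs). The ratio of both copies differed between the tissues in 2760 of 8887 tested pairs with a higher .L share in noses (31.1%) and in 2318 with a higher .L share in bulbs (26.1%, limma on the log2 ratio of counts, adjusted p under 0.05). The median size of the shift among these was 1.00 on the log2 scale, and 301 pairs shifted by more than 4. In 532 pairs the copies were called in opposite directions, 289 with .L higher in noses and 243 with .L higher in bulbs. For comparison, both copies were higher in noses in 2324 and in bulbs in 2806 of 8785 pairs with both copies tested. The .L copy of gpr37l1, a receptor of astrocytes in mammals, made up 29.3% of the pair's reads in noses and 0.0298% in bulbs (shift 9.77 ± 0.56). The myeloperoxidase pair of granulocytes reversed, with mpo.L at 24.0, 27.1 and 30.8 CPM in noses and 1.33, 1.53 and 1.46 CPM in bulbs, and mpo.S at 0.290, 0.279 and 0.131 against 9.98, 8.61 and 11.8 CPM (shift 9.70 ± 0.85). The iron-binding protein gene mfi2 held 8.80% of its reads in .L in noses and 94.2% in bulbs (-7.67 ± 0.32), gdpd3 86.7% and 1.82% (8.48 ± 0.32), and the carbonyl reductase cbr1 91.2% and 9.91% (6.68 ± 0.31). How the counting shared reads between near-identical copies was not examined, and the homeologs of a pair are not independent genes.

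**Figure D5:**
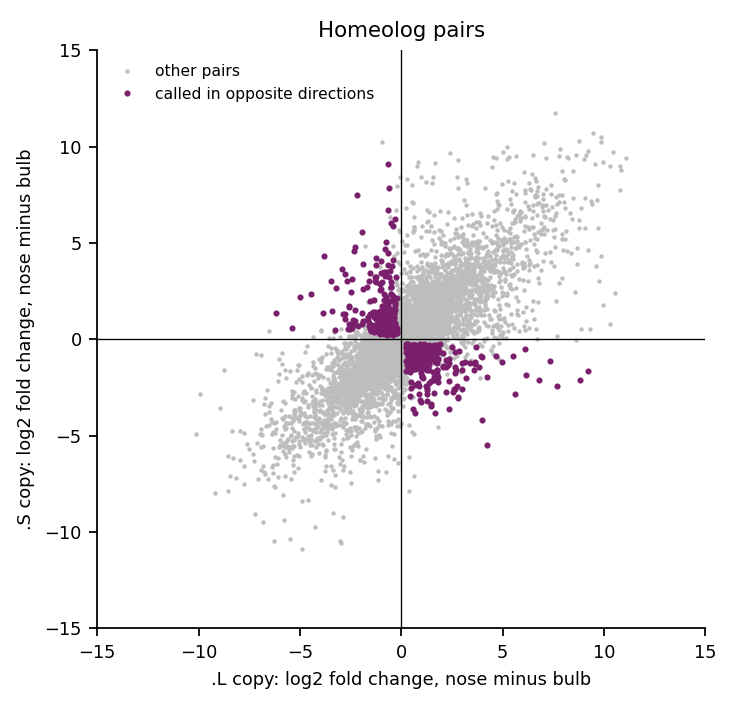
Log2 fold change, nose minus bulb, of the .S copy against that of the .L copy for each tested homeolog pair. The 532 pairs called in opposite directions lie in the upper left (.L higher in bulbs) and lower right (.L higher in noses) of the plot.

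Lipid and retinoid binding proteins gave 6 in noses and 10 in bulbs of 22 tested, synaptotagmins 4 and 10 of 18, ion carriers and pumps 10 and 10 of 24, and adenylyl cyclases 5 and 5 of 11. Choroid plexus and pineal genes gave 16 and 13 of 31 (median 1.29), and the nose side held genes of cilia and epithelia such as foxj1.S (3.45 ± 0.18), spag6.L (2.55 ± 0.10) and aqp1.S (3.47 ± 0.18). Genes of eye and lens were mostly on the bulb side, with 3 and 33 of 56, although 5 were on the nose side without nose library 1 and 6 without bulb library 3.

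The tissue difference was then followed into the nerve-cut larvae, whose noses and bulbs share no library with the controls but enter the same model. Of the 13699 genes higher in control noses, 11373 (83.0%) were also higher in noses 2 days after the cut, 11179 (81.6%) at 1 week and 10478 (76.5%) at 7 weeks, where 144, 289 and 493 were higher in bulbs. In those pairs 37.4%, 38.9% and 38.1% of all tested genes were higher in noses. Of the 12111 genes higher in control bulbs, 10100 (83.4%), 9719 (80.2%) and 8953 (73.9%) were again higher in bulbs, and 165, 347 and 606 in noses, with 33.9%, 34.2% and 33.5% of all genes higher in bulbs. At all 3 times 9512 (69.4%) and 8256 (68.2%) kept their side.

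The list of ciliated neuron genes, with its transcription factors and adhesion genes, gave other counts after the cut. This difference was not itself tested. Against 19 and 7 in controls, 13 were higher in noses, against 11 in bulbs at 2 days, 11 and 17 at 1 week, and 16 and 9 at 7 weeks. The subunit gng13.L, higher in control noses by 3.14, gave log2 fold changes of 2.14 at 2 days, -0.10 at 1 week (edgeR adjusted p = 0.71) and 2.74 at 7 weeks. At 1 week stoml3.L (7.99), ano2.S (5.36) and cnga2.L (1.86), also higher in control noses, were still higher in noses. Cell cycle genes gave other counts after the cut than in controls, a difference that was not itself tested. In controls 14 of 88 tested were higher in noses and 27 in bulbs (median -0.23), both below the share of all tested genes, and the count in bulbs was 15 without nose library 2, 17 with the 6 control libraries alone and 16 with all 39 libraries in the model. After the cut 50 were higher in noses, against 5 in bulbs at 2 days, 56 and 8 at 1 week, and 41 and 16 at 7 weeks (medians 0.72, 1.03 and 0.39). The replication helicase subunit mcm6.2.S stood at 19.9, 7.30 and 18.0 CPM in control noses and 43.4, 59.0 and 31.4 CPM in control bulbs (-1.57 ± 0.32), and gave log2 fold changes of 1.56, 2.07 and 2.03 at the 3 times.

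Homeolog pairs with opposite copies were followed in the same way. Of the 532 pairs 234 (44.0%) had both copies called the same way round at 2 days, 222 (41.7%) at 1 week and 197 (37.0%) at 7 weeks, and 0 the other way round. The pair amer1, a regulator of Wnt signalling, was not among them. Its .S copy stood at 3.05, 3.08 and 2.64 CPM in control noses with 1 read in control bulbs (ratio 806, 95% counting interval 144 to 31873), while the nerve-cut pairs gave log2 fold changes of -0.52, -0.45 and -1.47. Likewise lep.L, without a read in control bulbs, gave -0.04, 2.70 and 5.17 at the 3 times. The 52 genes without a read in control noses summed to a median of 1.32, 1.13 and 6.89 CPM in nerve-cut noses at 2 days, 1 week and 7 weeks, which is 0.317%, 0.271% and 1.71% of their level in the bulbs of the same time.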

How the data were processed

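RNA was sequenced from larval noses and bulbs. Per the submitters' processing notes, bcl2fastq 2.17.1.14, STAR 2.5 and featureCounts of Subread 1.5.0 were used, and the genome build is not given in the sources used here. The raw counts per gene deposited by the authors (37240 entries, 37223 after 17 repeats were dropped) were the input of every main test. Columns name a tissue and a number, so library numbers are those of the columns. TPM values deposited by the authors were tested only as an alternative, as log2(TPM + 1) with limma. Of 1712 list members with over 100 reads in nose and bulb libraries 2, 1376 (80.4%) had a RefSeq gene span (assembly v10.1), and the length implied by count over TPM lay within 0.2 (log2) of that span, introns included, for 70.2%. TPM ranks therefore served only to choose named members, and ranks by CPM are of reads, not of level per length. Raw counts divided by library factors, also deposited, were not used.

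Counts were fitted in R 4.3.3 with edgeR 4.0.16 (filterByExpr, minimum count 10 and minimum total 15, TMM factors, robust quasi-likelihood test) over 24 libraries in 8 groups of noses and bulbs. Genes at a Benjamini-Hochberg adjusted p under 0.05 were called. Standard errors derive from the F statistic. Homeolog ratios, log2((L + 0.5)/(S + 0.5)) for pairs with at least 20 reads, were tested with limma 3.58.1. CPM use TMM-scaled library sizes, and counting intervals cover counting error only. Code was tested on simulated counts.

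The 39 gene lists and the members named were chosen with earlier results of these data known. Named are up to 4 called members per direction of a list at 1 CPM or more, its members of highest TPM, up to 4 that go against it, the 10 largest changes per tissue at 5 CPM or more, and up to 10 opposite homeolog pairs. Cxcl12.L, cxcr4.L, sp8.L, cdh1.S, tp63.L, olig2, sox8.L, sox10.L, myrf.S, pdgfra.S, pmp2.S, drp2.L, pou3f1.S, lhx2, otx2.L, clic6.L, crx.L, ttr.S, foxj1.S, spag6.L and aqp1.S were named outside that rule or as fixed markers, some after their values were seen, and not every gene that meets the rule is named. The copies cngb1.L, adcy3.L, sox9.S, foxa2.L, cftr.L, slc4a4.S and pmp2.L were set beside their named homeologs after their values were seen. Both copies of ebf3 were set beside ebf2.S in the same way. Alternatives were DESeq2 1.42.0, RLE and upper-quartile factors, other sets of libraries, no filter, summed homeologs, a replicate block and leaving out each library.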

Additional observations from a re-analysis of the deposited data

How the results depend on the processing

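The counts of genes higher in noses and in bulbs stayed within 1.5 times of 13699 and 12111 with RLE or upper-quartile factors, DESeq2, no filter, summed homeologs, the 6 control libraries alone or all 39 libraries. Only the fit on log2(TPM + 1) moved them further, to 8762 genes higher in noses and to 4120 more than 2-fold higher, against 9075. Without 1 library the counts ran from 12824 to 13250 and from 11579 to 12033. With at least 5 CPM in the other tissue, 19 genes had no read in noses and 13 none in bulbs, where 52 and 150 had none at 1 CPM. A replicate block by column number gave 13580 and 12058 genes, and 5058 shifted homeolog pairs against 5078. The deviations of same-numbered libraries correlated at -0.055 to 0.119, so the numbers were not taken to pair libraries. Pairs with copies in opposite directions numbered 429 to 479 without 1 library, 490 at 100 reads or more, 535 with 2 added to each count, 559 with the 6 control libraries alone and 510 with the block, against 532. The settings were also run on the genes given here with values. Excepted were both copies of ebf3 and the copies cngb1.L, adcy3.L, sox9.S, foxa2.L, cftr.L, slc4a4.S and pmp2.L. Over these settings (not TPM or summed homeologs), 2309 values kept their side of the threshold, and called values their direction. The 3 that lost it were of lhx2.L, given above. DESeq2 gave no adjusted p for grin1.S and slc12a5.L. Leaving out 1 library moved the log2 value of a called gene by over 1.5 times only for atp2a1.L, from 9.30 to 6.14 without nose library 1. The uncalled mpz.S ran from -0.35 to 0.54. Lists whose counts moved by over 1.5 times did so with muscle, endothelial, red cell and cell cycle genes as given above, and with list sides that held at most 6 genes. Low genes near 0 CPM rest on few reads, so their folds have wide errors.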

Other observations

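The 3 gene models with symbols that took most reads of the control noses were ltk.S (mean 21594 CPM), lcmt1.L (10776 CPM) and smad4.1.S (8178 CPM), which had 770, 419 and 323 CPM in bulbs. Together they held 3.49% to 4.74% of the reads of a nose library and 0.164% to 0.197% of a bulb library. Their symbols name a receptor kinase, a carboxyl methyltransferase and a signalling mediator, and whether the reads come from those genes or from other transcripts at the same loci was not tested. In nerve-cut noses ltk.S ranged from 4848 to 12774 CPM at 2 days, from 7876 to 24508 CPM at 1 week and from 8595 to 25897 CPM at 7 weeks, against 18534 to 25076 CPM in control noses.

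Genes without a read in control bulbs and with at least 1 CPM in control noses, 150 in number, summed to a median of 4.50, 2.21 and 2.79 CPM in nerve-cut bulbs at 2 days, 1 week and 7 weeks. That is 2.43%, 1.41% and 1.25% of their level in noses of the same time.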
